A study of Mus musculus with 2 samples.

Results

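Cortex-type alpha nuclei of the thick ascending limb (TAL) were examined in the medullary portion of the mouse kidney. TAL alpha nuclei are those that carry claudin-10 (Cldn10) and little claudin-16 (Cldn16) or Kcnj10, and cortex-type here means that transcripts of Enox1 and Thsd4, which are abundant in the superficial TAL, were present. A barcode of the medulla library was a member if it held at least 10 Slc12a1 counts, at least 5 counts of Enox1 and Thsd4 together, 0 counts of Tmem207, Gpc5, Tmem52b and Nrxn3, at most 1 of Nos1 and Pappa2, at most 2 of Lrp2 and Cubn, and at most 5000 counts in all. Of the 8121 medullary barcodes, 790 met these limits (9.73%, exact binomial 95% interval 9.09 to 10.4), out of 13563 barcodes in both libraries.

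The study sorted green fluorescent nuclei from kidneys of male B6 mice (genotype label WT, age label 12 with no unit) in which the Slc12a1 gene drives a tamoxifen-inducible Cre, CreERT2, that switches on a nuclear membrane protein tagged with GFP (Sun1-sfGFP). The mice received tamoxifen at 1 mg per day for 5 days, followed by 10 days of induction. For cortex the outer 20% or so of the tissue depth was dissected, and all tissue beneath it went into the medulla sample, which therefore includes deep cortex. Each region gave 1 library, made with PIPseq, which partitions nuclei into particle-templated droplets, and both carry the same Cre and the same treatment. With 1 library per region, region and library cannot be told apart, no test between regions is possible, and every interval below is a 95% interval that covers counting error only. Because the labels do not tie the libraries to animals, nuclei are not replicates of anything but their own library.

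The TAL reabsorbs sodium chloride through the cotransporter NKCC2, encoded by Slc12a1, and its lumen-positive voltage drives calcium and magnesium between cells. The pores for that paracellular traffic are claudins, with claudin-10b favouring sodium and the claudin-16 and claudin-19 pair favouring divalent cations, and in mouse TAL these are held by different neighbouring cells. Alpha cells are the claudin-10 type and beta cells the claudin-16 type. The limb runs from the hypertonic inner stripe of the medulla to the cortex, so an alpha nucleus can come from very different surroundings.

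The members held 2094093 counts, with a median of 2661.5 counts and 1536 genes per nucleus and a range of 982 to 4943 counts. They were compared with 1353 cortical nuclei under the same limits (24.9% of 5442 cortical barcodes, 3316620 counts, median 2401), called cortex alpha nuclei, and with 1222 medullary nuclei that met every limit but held no Enox1 or Thsd4 count (2727928 counts, median 2222.5), called deep medullary alpha nuclei. Another group of 251 medullary beta nuclei (702086 counts, median 2770) had at least 5 Enox1 and Thsd4 counts, at least 2 Tmem52b counts in place of 0, no Gpc5 and no limit on Tmem207 or Nrxn3, with the other limits kept. The cortex library held 16457300 counts in all and the medulla library 20947211, and 0 barcode sequences were shared by the libraries. Levels are counts summed over the nuclei of a group, divided by the group's total and scaled to a total of 1000000 (CPM).

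Among medullary nuclei that met all other limits, 790 of 2662 (29.7%) had 5 or more Enox1 and Thsd4 counts, compared with 1353 of 1521 (89.0%) in cortex. Both genes were present together in 734 of the 790 members (92.9%) and in 97.1% of cortex alpha nuclei. The median sum was 10 counts in the members, with a 5th to 95th percentile of 5 to 27 and a maximum of 48, compared with 14 counts in cortex alpha nuclei. These 2 genes chose the members, so these values describe the choice only. The threshold cut through a continuous range, with 94 nuclei at exactly 5 counts and 92 nuclei at 4. Levels on the 2 sides of the threshold lay close together for Bmp5 (126 CPM at 5 counts and 115 at 4) and Ryr2 (356 and 350), and differed more for Slco2a1 (256 and 186), Sfrp1 (122 and 79.8) and Tnik (113 and 17.7).

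The alpha label held for the members against beta nuclei. Claudin-10 stood at 221 CPM in the members, 207 in cortex alpha nuclei and 262 in deep medullary alpha nuclei, against 7.1 in medullary beta nuclei. Ptger3, the prostaglandin E2 receptor EP3, stood at 1882 CPM in the members, 1609 and 2198 in the other alpha groups and 117 in beta nuclei. Of the 8 alpha markers, 7 were at least 2-fold higher in the members than in medullary beta nuclei and 0 were past 2-fold in either direction against cortex alpha nuclei. Of the 8 beta markers, all 8 were at least 2-fold lower than in medullary beta nuclei, and against cortex alpha nuclei 0 of 6 were past 2-fold. Against deep medullary alpha nuclei, however, 5 of 6 beta markers were at least 2-fold higher in the members (Cldn16, Pth1r, Cadps2, Col5a2 and Rtl4, median log2 ratio 2.87), and the list summed to 1628 CPM in the members, 471 in deep medullary alpha nuclei and 7693 in beta nuclei. Over all genes, 2.79% were at least 2-fold higher and 1.24% lower in the members than in medullary beta nuclei, 0.197% and 0.789% against cortex alpha nuclei, and 3.97% and 1.97% against deep medullary alpha nuclei. The marker lists of TAL types were drawn from this study and its libraries, so their direction is not independent evidence. Kcnj10, a basolateral potassium channel subunit, had 5 counts in the members (2.4 CPM) and 191 CPM in beta nuclei. Claudin-10 is not particular to the TAL, since barcodes with at most 2 Slc12a1 counts and at least 10 Lrp2 and Cubn counts, which carry proximal tubule genes, had 433 CPM.

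Transcripts of other cell types were scarce in the members. The 10 proximal tubule genes summed to 121 CPM in the members, 355 in cortex alpha nuclei and 85.0 in deep medullary alpha nuclei, with Slc27a2 the most abundant in the members at 48.2 CPM and none of the 10 at 0. The 6 distal convoluted tubule genes summed to 38.2 CPM in the members and 127 in cortex alpha nuclei, with Pvalb and Trpv5 at 0 in the members. Of the cortical counts, 175 were of Slc12a3, and 161 of these lay in 3 nuclei. The 8 endothelial genes summed to 36.8 and 103 CPM, but to 37.3 in the members of the deposited cluster 1 and 39.2, 50.3 and 48.5 in cortical clusters 1, 5 and 8, which held most cortex alpha nuclei. The 8 collecting duct genes summed to 11.5 and 21.7 CPM, the 7 thin limb genes to 37.2 and 37.7, the 8 stromal genes to 28.2 and 38.6 and the 6 immune genes to 10.0 and 23.8. Mitochondrially encoded transcripts made up 0.0566% of the counts of the members, 0.128% of those of cortex alpha nuclei and 0.0672% of those of deep medullary alpha nuclei. Both medullary groups were thus lower than the cortical one, and whether this went with region or library cannot be told apart. In barcodes with at most 100 counts, which hold free RNA, the proximal tubule genes summed to 1440 CPM in the medulla library and 5385 in the cortex library.

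The 7 genes given as markers of these nuclei fell into 2 sets. Slco2a1, Ryr2, Tnik and Adrb1 were higher than in deep medullary alpha nuclei, whereas Bmp5, Samd5 and Wnt7b were not, when all nuclei of each group were summed, and were higher than in cortex alpha nuclei. Slco2a1, the prostaglandin transporter (chromosome 9, 102865911 to 102973201 of GRCm39), stood at 379 CPM in the members (353 to 406), 357 in cortex alpha nuclei (337 to 378) and 29.7 in deep medullary alpha nuclei (23.6 to 36.9). The ratio of the members was 1.06 to cortex (0.968 to 1.16) and 12.8 to deep medullary alpha nuclei (10.1 to 16.2). Over the alternatives the latter ratio ranged from 11.8 to 40.3. The deep medullary level was a mixture, at 171 CPM in the authors' cluster 1, 28.3 in cluster 3 and 9.87 in cluster 4. Ryr2, a calcium release channel of the endoplasmic reticulum (chromosome 13, 11567988 to 12121870), stood at 398 CPM in the members, 324 in cortex alpha and 170 in deep medullary alpha nuclei, 2.34-fold above the last (2.08 to 2.62). Neither interval of the 2 genes overlapped that of the deep medullary nuclei.

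Tnik, a kinase that acts in Wnt-dependent transcription (chromosome 3, 28317363 to 28730007), stood at 63.0 CPM in the members (52.7 to 74.8), 42.2 in cortex alpha nuclei (35.5 to 49.8) and 28.2 in deep medullary alpha nuclei (22.3 to 35.3). The members were thus the highest of the 3 alpha groups when whole groups were summed, with ratios of 1.49 and 2.23. Against cortical cluster 5 alone the ratio was 0.822, which turned the direction. Over the alternatives the ratio to deep medullary alpha nuclei ranged from 1.878 to 4.41. Deep medullary nuclei of cluster 1 stood at 104 CPM (63.5 to 160) and those of cluster 4 at 14.8. Adrb1, the beta-1 adrenergic receptor (chromosome 19, 56710631 to 56721545), stood at 38.2 CPM in the members, 49.4 in cortex alpha and 23.1 in deep medullary alpha nuclei. Its ratio to cortex alpha nuclei was 0.773 with an interval that included 1 (0.584 to 1.02). The Adrb1 ratio to deep medullary nuclei was 1.65 (1.17 to 2.34), and it ranged from 1.44 to 3.36 over the alternatives. All 4 genes were lower in medullary beta nuclei, at 72.6 CPM for Slco2a1, 174 for Ryr2, 8.5 for Tnik and 11.4 for Adrb1.

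Bmp5, a bone morphogenetic protein ligand (chromosome 9, 75682638 to 75807592), had 156 counts in the members (74.5 CPM, 63.3 to 87.1) and 50 in cortex alpha nuclei (15.1 CPM, 11.2 to 19.9). Its ratio of 4.94 (3.57 to 6.94) was the largest among the genes compared with cortex, while its level in deep medullary alpha nuclei was 76.2 CPM (ratio 0.977, 0.789 to 1.21). That level was a mixture, with 141 CPM (118 to 167) in the 396 deep medullary nuclei of the authors' cluster 3 and 19.7 (12.1 to 30.5) in the 446 of cluster 4, the largest. Between the largest cluster of each group the Bmp5 ratio of the members was 3.78 to deep medullary and 6.11 to cortex alpha nuclei. Samd5, a gene for a sterile alpha motif protein (chromosome 10, 9399736 to 9551160), stood at 97.9 CPM in the members, 36.8 in cortex alpha and 114 in deep medullary alpha nuclei. Its ratio to cortex was 2.66 (2.12 to 3.36). Over the alternatives its ratio to deep medullary alpha nuclei ranged from 0.640 to 1.26. Deep medullary nuclei of cluster 4 stood at 75.0 CPM, against 94.4 in the members of cluster 1. Wnt7b, a Wnt ligand (chromosome 15, 85419638 to 85466674), had 33 counts in the members (15.8 CPM), 15 in cortex alpha nuclei (4.5 CPM) and 90 in deep medullary alpha nuclei (33.0 CPM), where the members were 0.478 times as high (0.310 to 0.719). Medullary beta nuclei had 0 Wnt7b counts in 251 nuclei, which allows up to 4.27 CPM at a limit of 3 counts over the group.

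**Figure D1:**
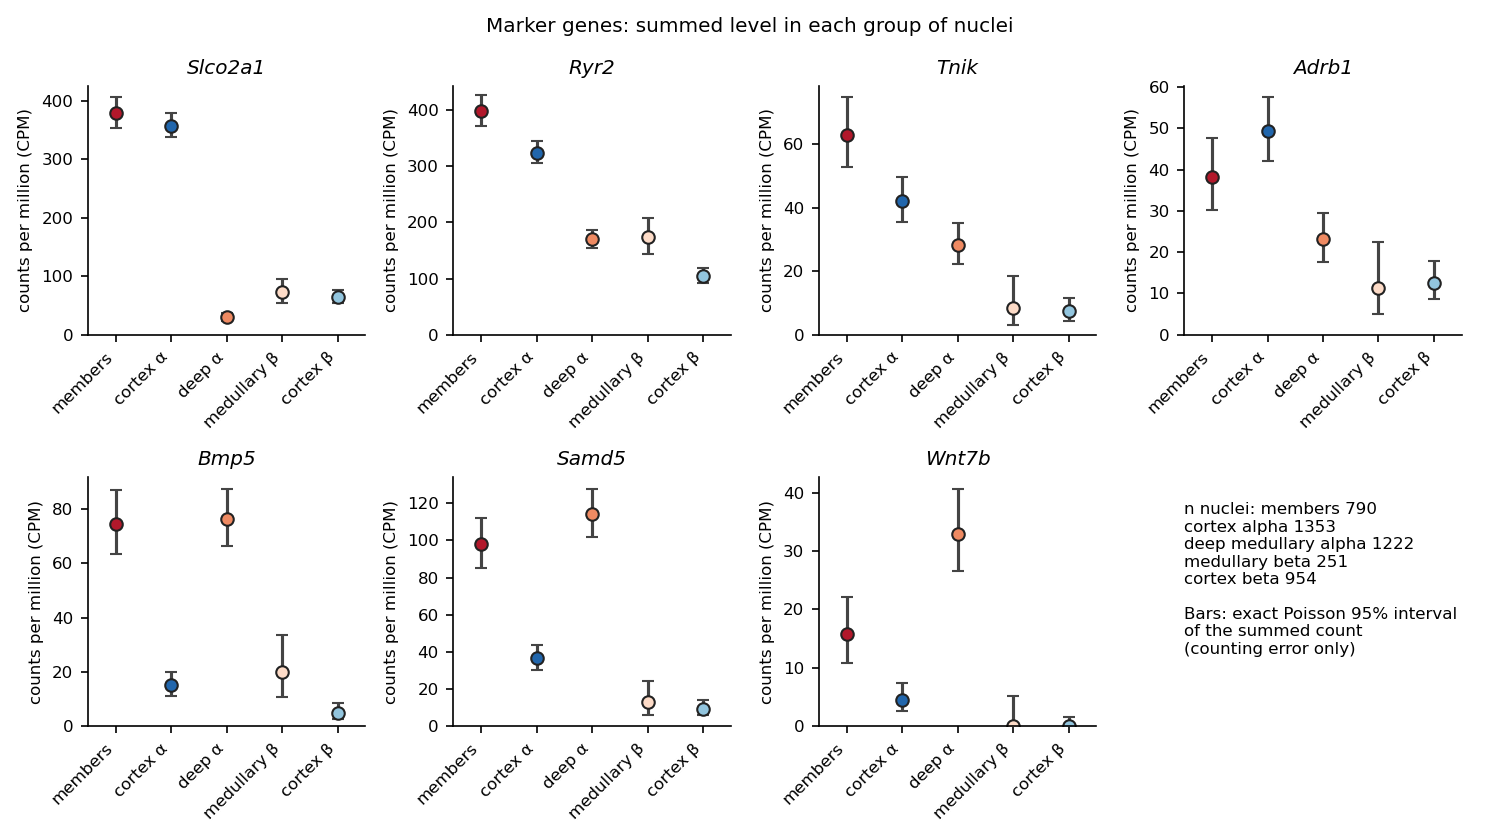
Level of each of the 7 marker genes, in CPM (y axis, from 0) of the summed nuclei of 5 groups (x axis; α and β stand for alpha and beta, and members are the cortex-type medullary alpha nuclei), with exact Poisson 95% intervals for counting error. Slco2a1 is alike in the members (379) and cortex alpha nuclei (357), whereas Bmp5 is alike in the members (74.5) and the summed deep medullary alpha nuclei (76.2), whose deposited clusters 3 and 4 differ (141 and 19.7, not drawn).

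The markers were sparse in single nuclei. At least 1 Ryr2 count was present in 46.5% of the members, Slco2a1 in 39.5%, Samd5 in 16.7%, Tnik in 11.3%, Bmp5 in 10.6%, Adrb1 in 9.37% and Wnt7b in 4.05%. In 77 medullary barcodes of the proximal tubule kind, with a median of 4885 counts, the shares were 22.1% for Ryr2, 20.8% for Slco2a1, 2.60% for Bmp5, 1.30% for Samd5 and 0 for Tnik, Adrb1 and Wnt7b. After each nucleus was thinned to 1000 counts, which left out 2 members, the shares were 27.0% for Ryr2 (5.19% in the proximal tubule barcodes), 26.4% for Slco2a1 (2.60%), 7.36% for Samd5 and 5.71% for Bmp5 (1.30%). Tnik stood at 6.22%, Adrb1 at 3.299% and Wnt7b at 2.03% after thinning, where 0 of 77 barcodes allows a share of up to 3.90% at a limit of 3 barcodes and of 4.68% by the exact binomial interval. Ryr2, Slco2a1 and Samd5 were above the background by either limit. The interval of Tnik (4.64 to 8.14%) lay above the first limit but not above the second, and Bmp5, Adrb1 and Wnt7b could not be told from the background by this share at this depth. No marker count at all was found in 174 of the 790 members, 1 of the 7 genes in 294, 2 in 205, 3 in 90, 4 in 19 and 5 in 8 nuclei. None of the 7 genes was detected in all members.

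The levels followed the Enox1 and Thsd4 count within the medulla library. Since this count chose the members, the gradient is a description of how other genes are ordered along it. Among medullary nuclei with 0, 1 to 2, 3 to 4, 5 to 6, 7 to 9 and 10 or more counts (1222, 415, 235, 182, 196 and 412 nuclei), Sfrp1, which encodes a secreted Wnt antagonist, stood at 7.0, 35.6, 69.9, 134, 234 and 595 CPM. Pde10a, a phosphodiesterase of cyclic nucleotides, ran from 12.5 to 608 CPM over the same nuclei. Ranbp3l ran the other way, at 4719, 2602, 1023, 873, 455 and 187 CPM, as did Sgcz, a sarcoglycan gene, which fell from 3630 to 327 CPM. Members at the low end were thus between the deep medullary and the cortical level for all 4 genes.

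Not every gene moved in step with that count. Casr, the calcium-sensing receptor, was at 244 CPM with 0 counts and 651 with 1 to 2, and then stayed between 855 and 902 CPM from 3 counts on. Slco2a1 did rise along it, from 29.7 to 431 CPM. Ryr2 went from 170 to 362 CPM at 3 to 4 counts and lay between 388 and 419 above. Bmp5 was highest at 5 to 6 counts (136 CPM) and lower at both ends, 76.2 with 0 counts and 44.1 with 10 or more. Samd5 had the same shape, with 114, 176 and 55.6 CPM. Cldn10 stayed between 213 and 262 CPM over all 6 classes. The range of 10 to 14 counts held 185 medullary and 366 cortical nuclei, alike in raw counts of the 2 genes only. Their Enox1 and Thsd4 level was 4724 CPM in medulla and 5181 in cortex, with median totals of 2594 and 2260.5 counts. In these nuclei Bmp5 was 42.4 CPM in medulla and 16.5 in cortex, Samd5 72.1 and 42.5, Ranbp3l 187 and 192 and Sfrp1 522 and 616.

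**Figure D2:**
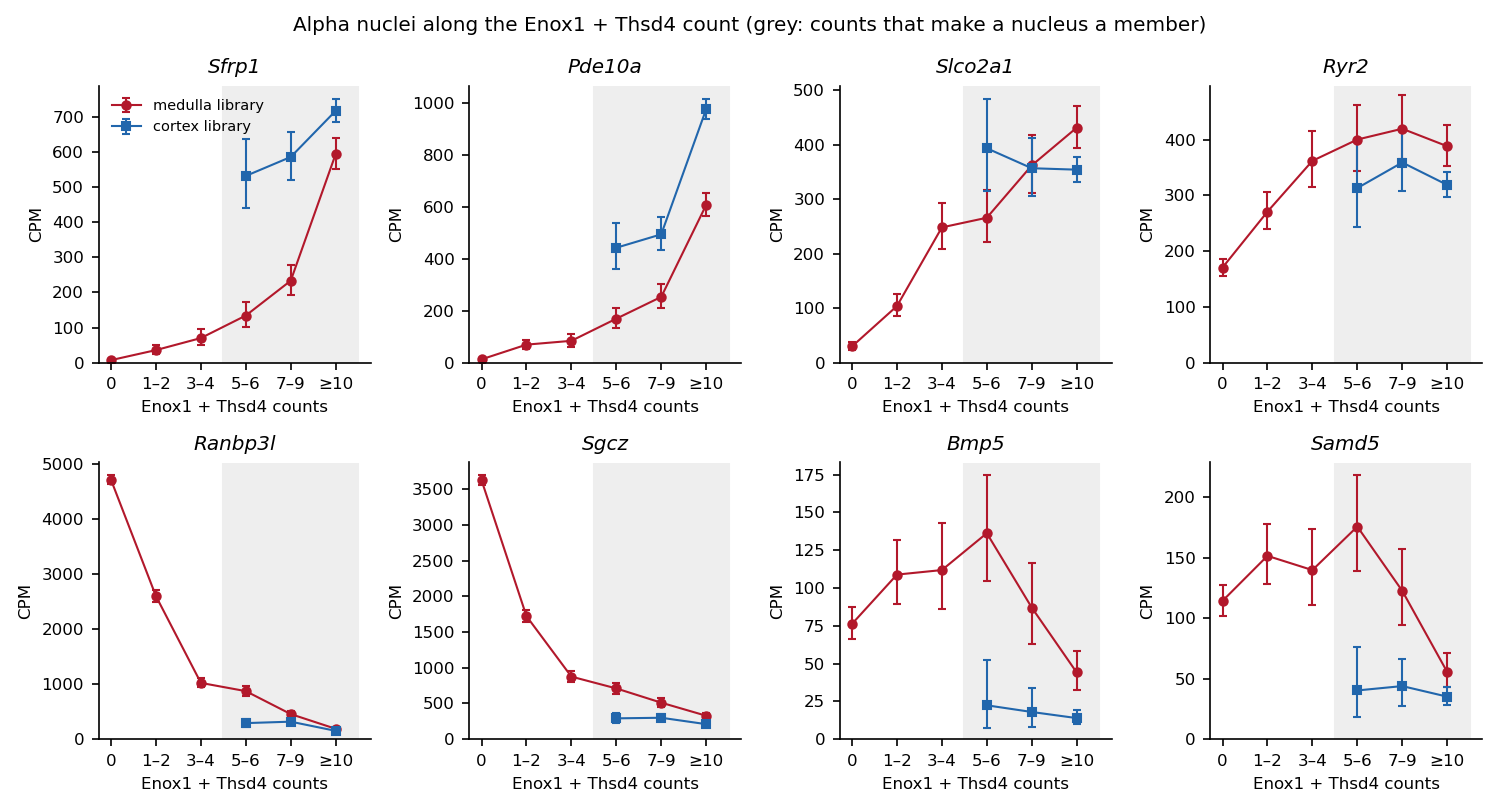
Level of 8 genes in CPM (y axis, from 0, bars are exact Poisson 95% intervals) in alpha nuclei grouped by the sum of their Enox1 and Thsd4 counts (x axis), for the medulla library (circles) and the cortex library (squares, from 5 counts on). Ranbp3l falls from 4719 to 187 CPM along the medullary nuclei while Sfrp1 climbs from 7.0 to 595, and Bmp5 and Samd5 peak at 5 to 6 counts.

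Compared with cortex alpha nuclei, the members were alike for most genes. Of 7097 genes with at least 100 counts in both groups together, genes of the rule left out, 80.4% lay within 1.25-fold, 14 were at least 2-fold higher in the members (0.197% of the genes compared) and 56 were at least 2-fold lower (0.789%). The same limits held in both libraries, and since the members were chosen with these results known, the counts are descriptions. The higher genes were led by Bmp5 and included Ano4, a member of the anoctamin family (48.7 CPM in the members and 17.2 in cortex alpha nuclei, ratio 2.83, 2.03 to 3.99), and Samd5. Filip1l stood at 91.2 and 35.9 CPM, the sodium-activated potassium channel gene Kcnt1 at 39.6 and 17.2, Ranbp3l at 401 and 185 and Ppp1r1b, a regulator of protein phosphatase 1, at 52.1 and 25.03. Ckb, the brain-type creatine kinase, stood at 59.2 and 28.6 CPM, Gm2115 at 65.9 and 32.3, Fam117a at 36.3 and 17.8, the homeobox factor Prox1 at 54.0 and 26.5 and the proprotein convertase gene Pcsk6 at 354 and 175.

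Between nuclei of 10 to 14 Enox1 and Thsd4 counts alone, 0 of 2816 genes were at least 2-fold higher and 13 were lower. Several of the 14 higher genes had too few counts to be compared there but kept ratios of at least 2, namely Ano4 (5.17), Gm2115 (3.59), Filip1l (2.97), Bmp5 (2.57) and Kcnt1 (2.31). Ppp1r1b (1.96), Pcsk6 (1.81), Samd5 (1.70), Fam117a (1.557), Ckb (1.388), Prox1 (1.12) and Ranbp3l (0.970) lay under 2-fold. For 13 of the 14 genes the level in deep medullary alpha nuclei was as high as in the members or higher. Ranbp3l stood at 4719 CPM there, Filip1l at 582, Ano4 at 424, Kcnt1 at 204, Prox1 at 185 and Fam117a at 122. The exception was Gm2115, at 44.4 CPM in deep medullary nuclei (ratio 1.49, 1.16 to 1.91), and Bmp5, Samd5 and Ckb had intervals that included 1. In the free RNA of the medulla library Ranbp3l (2887 CPM), Pcsk6 (509), Ano4 (343), Filip1l (286) and Kcnt1 (181) stood above their level in the members, whereas Bmp5 (54.4), Samd5 (55.9) and Gm2115 (29.7) stood below it. Of the 14 genes, 12 were at least 2-fold higher in medullary than in cortical free RNA, against 1.86% of the 6704 genes with at least 100 free counts. If all proximal tubule transcripts in the members came from free RNA, free RNA would be 8.39% of their counts, an upper estimate, and 6.60% in cortex alpha nuclei. Of the 121 CPM of proximal tubule genes in the members, 48.2 were Slc27a2. That gene was at least 2-fold higher in the members than in deep medullary alpha nuclei of the same library. Every subtraction of free RNA here and below used this upper estimate for each group, so it may take away too much. On that estimate free RNA would make up 60.5% of the Ranbp3l level in the members, 59.1% of Ano4, 44.2% of Sgcz, 38.4% of Kcnt1 and 26.3% of Filip1l, but 6.13% of Bmp5, 4.79% of Samd5 and 3.78% of Gm2115. With that amount subtracted from both groups, the ratio to cortex was 4.94 for Bmp5, 2.67 for Samd5, 2.08 for Gm2115, 2.03 for Filip1l, 1.53 for Kcnt1, 1.31 for Ano4 and 0.986 for Ranbp3l. At this upper estimate the subtraction took Kcnt1, Ano4, Prox1 (1.77), Fam117a (1.80), Pcsk6 (1.87), Ppp1r1b (1.95) and Tnfsf15 under 2-fold and turned the direction of Ranbp3l. After it 11 genes were at least 2-fold higher, 6 of them among the 14.

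**Figure D3:**
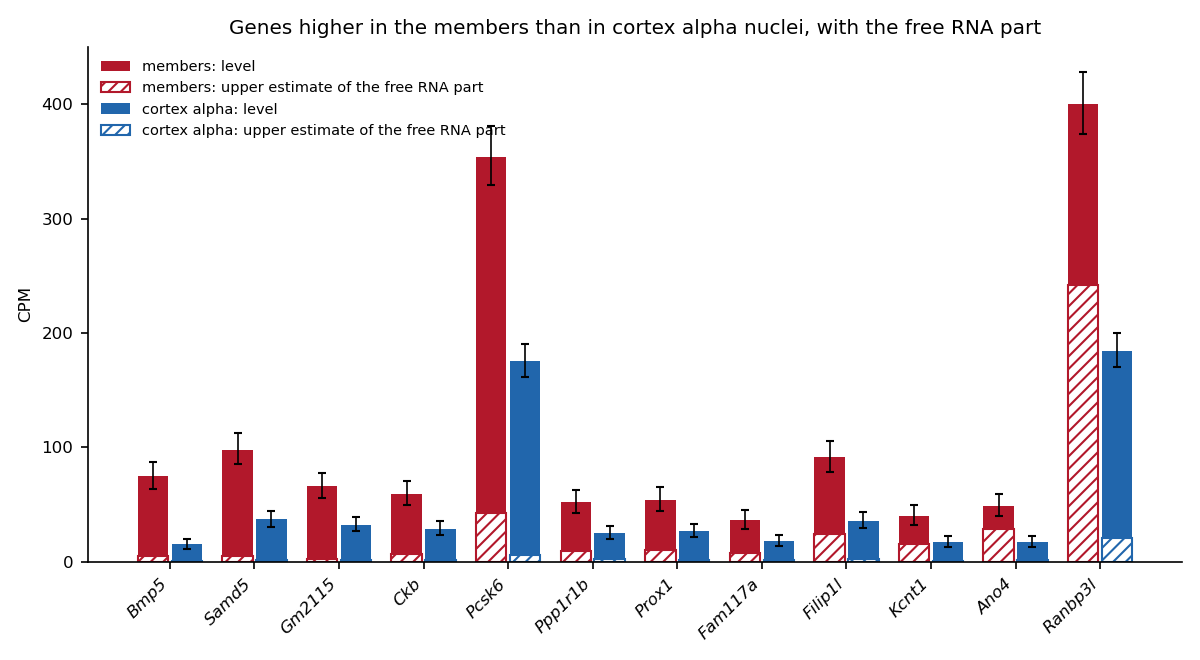
Level in CPM (y axis, from 0) of 12 of the 14 genes at least 2-fold higher in the members (red) than in cortex alpha nuclei (blue), with exact Poisson 95% intervals; the hatched part is the upper estimate of what free RNA contributes. The hatched part is 60.5% of the Ranbp3l bar and 59.1% of the Ano4 bar of the members, and 6.13% of the Bmp5 bar.

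The genes lower in the members than in cortex alpha nuclei were of several kinds. The distal convoluted tubule cotransporter gene Slc12a3 had 2 counts in the members and 175 in cortex alpha nuclei, 161 of them in 3 nuclei. Proximal tubule genes were lower, with Slc34a1, the sodium-phosphate cotransporter, at 13.4 and 86.5 CPM, Dab2, an endocytic adaptor of that segment, at 6.2 and 43.1, and Acsm2 at a ratio of 0.256. Of 10 mitochondrially encoded genes compared, 9 were at least 2-fold lower (median log2 ratio -1.18, against -0.02 over all genes). Bmp6, another ligand of the Bmp5 family, stood at 10.98 CPM in the members and 35.6 in cortex alpha nuclei (ratio 0.309, 0.188 to 0.486). Robo2, the axon guidance receptor, stood at 151 and 459 CPM, Tshr, the thyrotropin receptor, at 20.1 and 53.4, and Pde10a at 427 and 868. The named genes with the lowest ratios also held Fut9 (0.264), Prickle2 (0.279), Tshz2 (0.282), Tbc1d16 (0.303) and Csgalnact1 (0.314). Of these, Prickle2 (1.38) and Tshz2 (1.36) turned direction against the cortex alpha nuclei of the deposited clusters 1 and 5, and Tbc1d16 (3.39) and Csgalnact1 (3.98) against those of cluster 5 alone, while Fut9 stayed at least 2-fold lower in both (0.467 and 0.365).

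Most of the lower genes were also lower in medullary than in cortical beta nuclei. Of the 56 lower genes, 34 had at least 100 counts in medullary and 954 cortex beta nuclei together. Of these 33 were lower in the medullary beta nuclei and 20 at least 2-fold, with a median ratio of 0.414 against 0.988 over 5349 genes. Among all 5408 genes compared between the beta groups, 1.42% were at least 2-fold lower in medulla and 0.0925% higher. Of the 14 higher genes, 5 could be compared in beta nuclei and 3 of these were higher there, Ano4 (2.94), Pcsk6 (2.45) and Ranbp3l (1.74), whereas Prox1 (0.812) and Ppp1r1b (0.915) were not. Free RNA moved with the lower genes too, since 36 of the 50 with at least 100 free counts were at least 2-fold lower in medullary free RNA, against 3.68% of genes. With the upper estimate of free RNA subtracted there were again 56 lower genes, 47 of them among the first 56, and the ratios of Bmp6 (0.306) and Robo2 (0.356) stayed close to their values without subtraction. Whether these genes differed by region or by library cannot be told apart.

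The cluster numbers that the authors deposited split the cortex alpha nuclei more than the members. Cluster 1 of the medulla library held 733 of the 790 members (92.8%), and the members were 47.5% of its 1542 barcodes. Of the cortex alpha nuclei, 906 lay in cluster 1 of that library (67.0%), 175 in cluster 5, 152 in cluster 8 and 52 in cluster 3. The 52 nuclei of cluster 3 went against the alpha label, with 23.7 CPM of Cldn10, 319 of Ptger3, 189 of Egf and 6294 of Robo2. The 8 macula densa markers, among them Robo2, Ndst4 and Tshr, summed to 10305 CPM there, 2118 in cluster 8, 285 in cluster 1 and 83.9 in cluster 5, compared with 207 in the members of cluster 1. Over all members the list summed to 294 CPM and over all cortex alpha nuclei to 723, and 3 of its 5 genes compared (Ndst4, Robo2 and Tshr) were at least 2-fold lower in the members, as were 0.789% of all genes.

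Those 3 calls were lost when the cortical comparison was narrowed. Against the cortex alpha nuclei of clusters 1 and 5 alone, a choice made after the values were seen, the Robo2 ratio was 0.994, Tshr 2.47 and Ndst4 2.90, and the counts were 9 higher and 19 lower genes of 6613. Tshr and Ndst4 were under the minimum of 100 counts there, with 20 and 21 counts in cortical cluster 1 and 2 and 0 in cluster 5. Bmp5 (4.30), Samd5 (2.504), Ano4 (2.75), Filip1l (2.31), Kcnt1 (2.03) and Ranbp3l (2.93) stayed at least 2-fold higher in that comparison. Within the members, Robo2 was uneven too. It had 317 counts in 96 nuclei, of which 194 were in the 733 members of cluster 1 and 123 in the other 57 members. The 17 members with at least 5 Robo2 counts held 48.0% of them.

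Cortical cluster 5 lay nearer to the members than cortical cluster 1 did for several of these genes. Its 175 nuclei had a median of 9 Enox1 and Thsd4 counts, compared with 16 in cortical cluster 1 and 10 in the members of cluster 1. Bmp5 stood at 45.5 CPM in cluster 5 and 12.2 in cortical cluster 1, against 74.5 in the members of cluster 1. Samd5 stood at 62.3, 34.9 and 94.4 CPM in the same order, Wnt7b at 21.6, 2.2 and 16.3, Tnik at 76.7, 37.9 and 65.3, Filip1l at 125, 24.0 and 78.6 and Ranbp3l at 338, 100 and 296. The cortical score genes, a list of genes of the superficial TAL, summed to 4092 CPM in cluster 5, 8195 in cortical cluster 1 and 5216 in the members of cluster 1. Against cluster 5 alone, also chosen after the values were seen, 39 genes were at least 2-fold higher in the members and 4 lower (Gpx3, mt-Co2, mt-Nd1 and mt-Nd2) of 4510. The Bmp5 ratio was 1.64 and the Samd5 ratio 1.57 there, both under 2-fold, and Ano4 (0.883), Filip1l (0.732), Kcnt1 (0.719) and Pcsk6 (0.826) lay below 1. Robo2 (12.6, with 5 counts in cluster 5) and Pde10a (3.18) were further from 1 against cluster 5. Between the members of cluster 1 and cortical cluster 1 they were at 0.557 and 0.413. In that comparison 14 of 6262 genes were at least 2-fold higher and 26 lower.

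**Figure D4:**
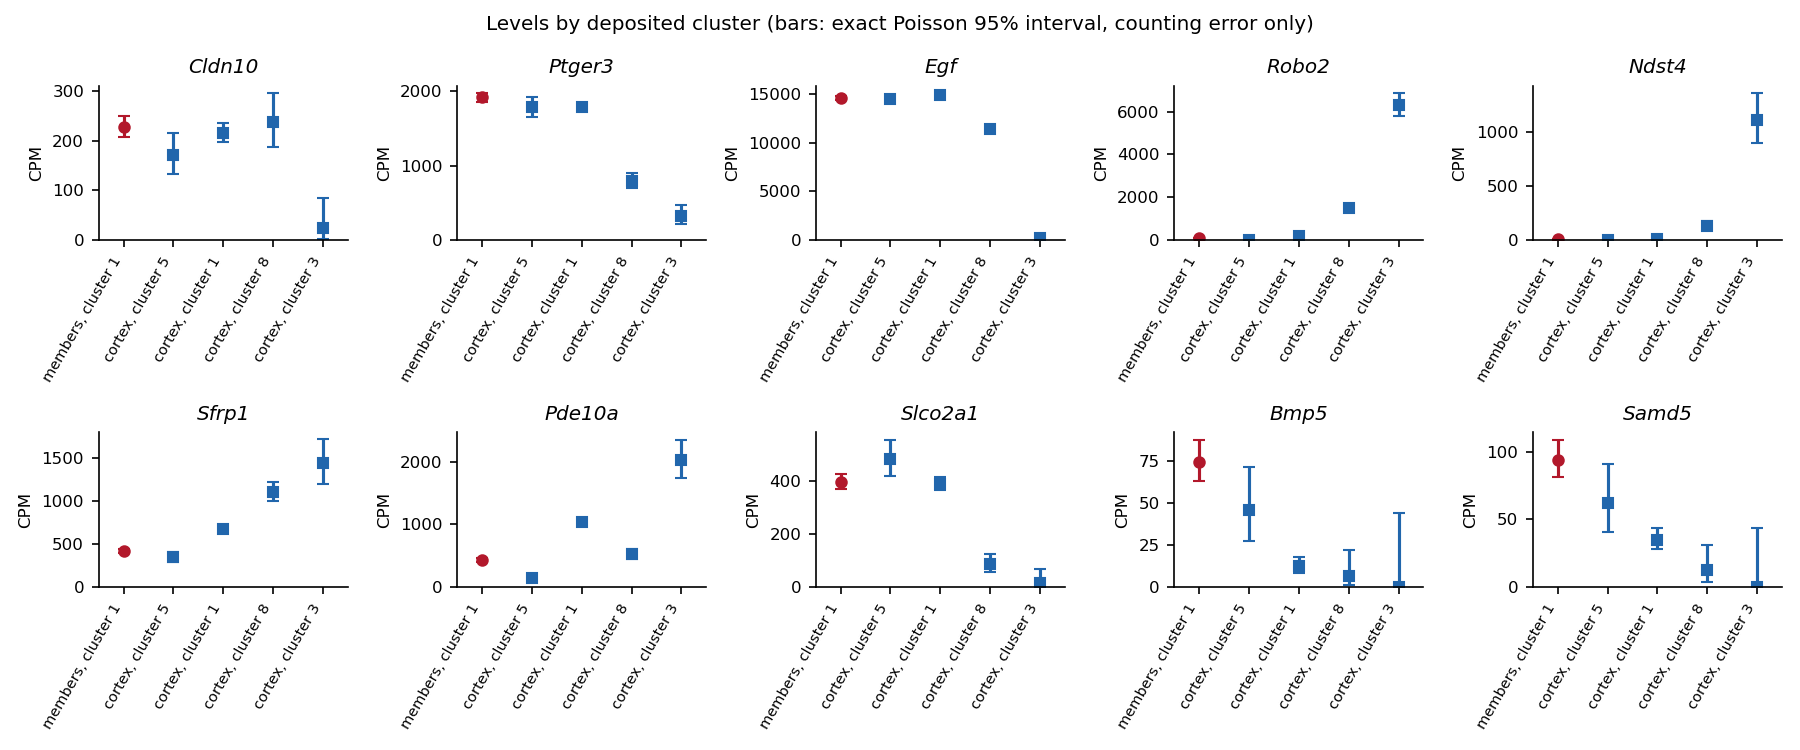
Level of 10 genes in CPM (y axis, from 0) in the members of medullary cluster 1 (circles) and in cortex alpha nuclei of the deposited clusters 5, 1, 8 and 3 (squares), with exact Poisson 95% intervals. Robo2 reaches 6294 CPM and Egf drops to 189 CPM in cortical cluster 3, and Bmp5 falls from 74.5 CPM in the members to 45.5 in cortical cluster 5 and 12.2 in cortical cluster 1.

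Compared with deep medullary alpha nuclei, the members differed in many more genes. Of 6593 genes, 62.9% lay within 1.25-fold, 262 were at least 2-fold higher in the members (3.97%) and 130 at least 2-fold lower (1.97%). Both groups come from the same library, but the rule set Enox1 and Thsd4 apart between them, so these counts carry no test. The largest ratios were those of Sfrp1 (407 and 7.0 CPM, 58.5-fold), Car15, a carbonic anhydrase gene (326 and 6.6 CPM, 49.4-fold), Pde10a (427 and 12.5 CPM, 34.3-fold), Robo2 (31.8-fold), Atp2b4, a plasma membrane calcium pump gene (19.7-fold), Atp4a, the catalytic subunit of the hydrogen-potassium pump (16.5-fold), Sh3bp5, Mapk4, Flrt2 and Shd. The smallest were those of the laminin gene Lama1 (3.8 and 128 CPM), the G protein regulator Rgs7 (3.8 and 83.6 CPM), Pik3c2g, Ankrd33b, Scel, Spag5, Ranbp3l, 4921539H07Rik, Ano4 and Sgcz.

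The 2 regional lists placed the members between the other alpha groups when whole groups were compared. All 11 cortical score genes were at least 2-fold higher in the members than in deep medullary alpha nuclei (3.97% of all genes, median log2 ratio 3.01), and all 11 were lower than in cortex alpha nuclei, 1 of them (Pde10a) by 2-fold (0.789%, median -0.54). Of 13 medullary score genes, 10 were at least 2-fold lower than in deep medullary alpha nuclei (1.97%, median -1.59), and all 13 were higher than in cortex alpha nuclei, 2 of them (Ranbp3l and Pcsk6) by 2-fold (0.197%, median 0.54). With free RNA subtracted, Ranbp3l (0.986), Enpp2 (0.973) and Pax2 (0.933) lay below 1 and Pcsk6 was 1.87, so both calls were lost. Against cortical cluster 5 the order turned, since the medullary score genes summed to 8798 CPM there and 8069 in the members of cluster 1, the cortical score genes were lower there as given above, and the ratio was 3.18 for Pde10a and 0.826 for Pcsk6. Medians over all genes were -0.02 in both comparisons. Both lists came from this study and were chosen on these libraries, so their direction is not independent evidence. The gamma markers, genes of another TAL type that the study named, summed to 1084 CPM in the members, 750 in cortex alpha and 6042 in deep medullary alpha nuclei, with 3 of 7 at least 2-fold higher than in cortex alpha nuclei (Ano4, Prox1 and Kcnt1, against 0.197% of all genes) and 7 of 8 at least 2-fold lower than in deep medullary alpha nuclei (1.97%). With free RNA subtracted, as above, all 3 of those ratios to cortex alpha nuclei fell under 2-fold.

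**Figure D5:**
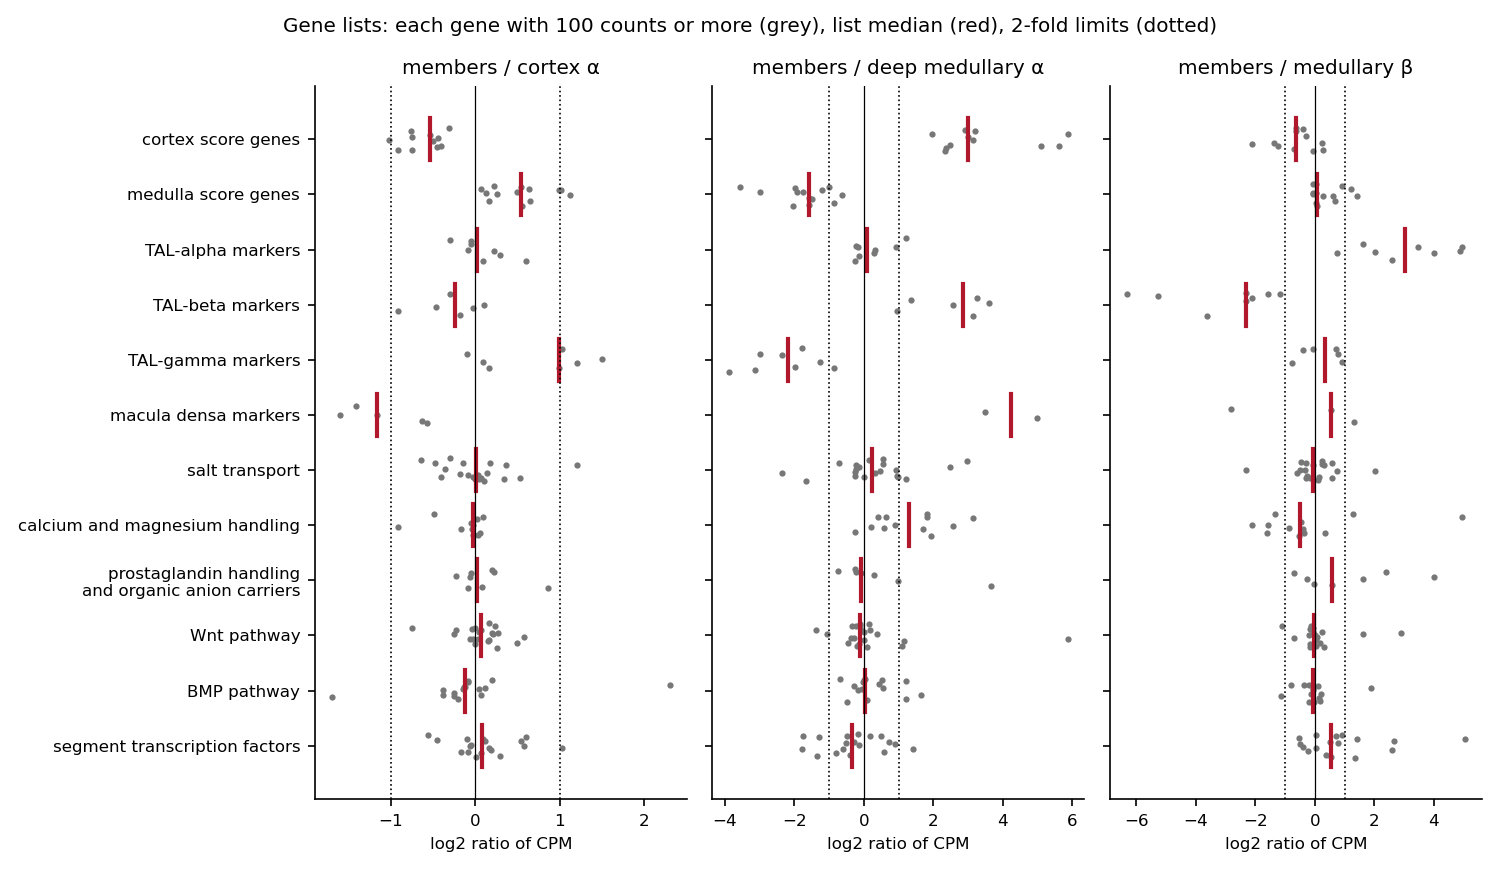
Log2 ratio of the level in the members to that in cortex alpha, deep medullary alpha and medullary beta nuclei (panels, each with its own x axis), for the genes of 12 lists with at least 100 counts in both groups (grey points, spread vertically at random), with list medians in red and dotted lines at 2-fold. Medians of the cortical score genes are -0.54 against cortex alpha and 3.01 against deep medullary alpha nuclei, and those of the alpha markers are 0.02 and 0.09.

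Of 20 salt transport genes, 1 (Kcnt1) was at least 2-fold higher and 0 lower against cortex alpha nuclei, where 0.197% and 0.789% of all genes were. The Kcnt1 call was lost with free RNA subtracted (1.53) and against cortical cluster 5 (0.719). Umod, which encodes uromodulin, stood at 5041 CPM in the members and 4668 in cortex alpha nuclei. Against deep medullary alpha nuclei, the sodium-hydrogen exchanger gene Slc9a2 (128 and 16.1 CPM, ratio 7.90) and the potassium channel gene Kcnma1 (368 and 159 CPM, ratio 2.31) were higher. Kcnt1 and the bicarbonate cotransporter gene Slc4a7 (43.5 and 137 CPM) were lower. Against medullary beta nuclei, 1 of 19 was higher (Kcnma1) and 1 lower, the kinase gene Wnk1 (633 and 3153 CPM), compared with 2.79% and 1.24% of all genes.

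Of 12 calcium and magnesium genes compared, 6 were at least 2-fold higher than in deep medullary alpha nuclei, against 3.97% of all genes. None was past 2-fold against cortex alpha nuclei, where few genes of any kind were (0.197% higher and 0.789% lower). Egf, a magnesium-regulating growth factor, stood at 14184 CPM in the members, 13886 in cortex alpha nuclei and 4010 in deep medullary alpha nuclei, and had a count in 779 of the 790 members. Casr stood at 868, 898 and 244 CPM, and Kl, which encodes klotho, at 354, 340 and 93.5. Cldn16 stood at 103 CPM in the members and 105 in cortex alpha nuclei. The members were 5.99-fold above the 17.2 of deep medullary alpha nuclei (4.35 to 8.39) and at 0.340 of the 303 of medullary beta nuclei. Over the alternatives the former ratio ranged from 5.57 to 34.1, with 62.3 CPM in deep medullary cluster 1 and 2.96 in cluster 4. The parathyroid hormone receptor gene Pth1r (127, 238 and 14.3 CPM) and the vitamin D receptor gene Vdr (111, 156 and 34.1 CPM) made up the 6, and Pth1r had a ratio of 0.533 to cortex alpha nuclei. Cldn10 and Cldn16 were both detected in 9.75% of the members, compared with 8.96% from the product of their single shares. Against medullary beta nuclei, 2 genes of this list were higher (Cldn10 and Trpm7) and 4 lower (Cldn16, Pth1r, Vdr and Cnnm2), of 12 compared (2.79% and 1.24% of all genes).

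Among hormone and transmitter receptors, 1 of 18 (Tshr) was past 2-fold against cortex alpha nuclei (0.789% of all genes were lower), a call that turned direction in the largest deposited cluster (1.82) and against cortical clusters 1 and 5 (2.47). Both of these ratios rest on few Tshr counts, with 31 in the members of cluster 1, 20 in cortical cluster 1 and 2 in cortical cluster 5. In the comparison with deep medullary alpha nuclei 4 of 16 were higher, compared with 3.97% of all genes. These were Casr, Pth1r, Vdr and the glucagon receptor gene Gcgr (227 and 109 CPM, ratio 2.08). Against medullary beta nuclei 2 of 16 were higher, Ptger3 and Esr1, and 3 lower, Pth1r, Tshr and Vdr (2.79% and 1.24% of all genes). Of the genes for cyclic AMP and calcium signalling, 1 of 18 (Pde10a) was past 2-fold against cortex alpha nuclei (0.789% of all genes were lower), and its ratio turned to 3.18 against cortical cluster 5. Compared with deep medullary alpha nuclei 3 of 18 were past 2-fold, Pde10a, Ryr2 and Kcnma1, all higher (3.97% of all genes). Against beta nuclei 4 of 19 were higher and 2 lower (2.79% and 1.24% of all genes), with the calcium channel subunit gene Cacnb2 at 592 and 19.9 CPM and the inositol trisphosphate receptor gene Itpr2 at 15.8 and 605 CPM.

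Of 8 prostaglandin genes compared, none was past 2-fold against cortex alpha nuclei, where 0.197% of all genes were higher and 0.789% lower. Slco2a1 was the 1 of 7 that was higher than in deep medullary alpha nuclei (3.97% of all genes), and 3 of 7, Slco2a1, Slco3a1 and Ptger3, were higher than in beta nuclei (2.79%). Slco2a1 and Ptger3 were detected together in 36.5% of the members, 34.4% of cortex alpha nuclei and 4.99% of deep medullary alpha nuclei.

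Of 16 genes of the BMP list, Bmp5 alone was at least 2-fold higher and Bmp6 alone lower against cortex alpha nuclei (0.197% and 0.789% of all genes). Against cortical cluster 5 alone the ratios were 1.64 and 0.916, and both calls were lost. At least 1 Bmp6 count was present in 2.03% of the members and 5.62% of cortex alpha nuclei, and in 37.7% of the medullary and 64.6% of the cortical proximal tubule barcodes. Against deep medullary alpha nuclei, where 3.97% of all genes were higher, 3 of 15 were: the ligand gene Bmp4 (48.2 and 15.4 CPM), the inhibitory Smad gene Smad6 (185 and 79.9 CPM) and the target gene Id2 (186 and 79.9 CPM). Sostdc1, a secreted antagonist of BMP and Wnt ligands, stood at 105 CPM in the members and 232 in medullary beta nuclei (ratio 0.450). Bmp5 and Samd5 were detected together in 3.29% of the members, against 1.78% from the product of their shares, and Bmp5 and Sfrp1 in 2.03%, against 4.55%. These shares describe sparse counts and were given no test.

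Of 21 Wnt pathway genes, 0 were past 2-fold against cortex alpha nuclei (0.197% of all genes were higher and 0.789% lower). Against deep medullary alpha nuclei (3.97% and 1.97%), 3 were higher (the receptor gene Ror2 at 42.0 and 19.8 CPM, Tnik and Sfrp1). In that comparison 2 were lower (Wnt7b and the transcription factor gene Tcf7l1 at 88.3 and 229 CPM). Over the alternatives the Tnik ratio went down to 1.878 and the Wnt7b ratio up to 0.6025, so each of these calls was lost in some of them. Against beta nuclei Lrp6 and Tnik were higher and Ror2 lower, of 18 (2.79% and 1.24% of all genes).

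Of the osmolyte genes, which respond to hypertonicity, some were intermediate. Slc5a3, the myo-inositol cotransporter, stood at 1691 CPM in the members, 1075 in cortex alpha nuclei and 3877 in deep medullary alpha nuclei. It overlaps Mrps6, which moved with it (511, 352 and 1425 CPM), and counts of the pair cannot be told apart with certainty. Akr1b3, aldose reductase, stood at 11.9 and 29.0 CPM in the members and the deep medullary nuclei, and the amino acid transporter Slc38a2 at 104 and 361. These 3 of 5 genes were at least 2-fold lower than in deep medullary alpha nuclei, as were 1.97% of all genes. The others were not between the groups, with the tonicity-responsive factor gene Nfat5 at 711 CPM in the members, 664 in cortex alpha and 702 in deep medullary alpha nuclei, and Hspa4l at 28.2, 26.2 and 21.3. Of 4 genes compared with cortex none was past 2-fold although all 4 had ratios above 1. Of 3 genes compared with beta nuclei none was past 2-fold.

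Of 18 segment transcription factors, Prox1 alone was past 2-fold against cortex alpha nuclei (0.197% of all genes were higher), and not with free RNA subtracted (1.77), at 10 to 14 Enox1 and Thsd4 counts (1.12) or against cortical cluster 5 (1.25). Against deep medullary alpha nuclei, Tfcp2l1 was higher (989 and 369 CPM), and 4 were lower, Sim1 (588 and 1433 CPM), Pax2 (471 and 1592 CPM), Pax8 (168 and 429 CPM) and Prox1 (3.97% and 1.97% of all genes). Against medullary beta nuclei 5 of 17 were higher (2.79% of all genes), among them Irx1 (94.6 and 2.8 CPM), Irx2 (109 and 17.1 CPM) and Zfpm2 (462 and 76.9 CPM). None of 17 Hox genes was past 2-fold against cortex alpha nuclei (0.197% and 0.789% of all genes), though 1 alone had a ratio above 1 (median log2 ratio -0.29), and Hoxd8 (2.70) and Hoxd9 (2.91) were higher than in deep medullary alpha nuclei (3.97% of all genes).

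Against medullary beta nuclei of the same library, 135 of 4839 genes were at least 2-fold higher in the members (2.79%) and 60 lower (1.24%), with 67.2% within 1.25-fold. Tmem52b, Tmem207 and Nrxn3 were set apart by the rule, so that these counts carry no test either. The highest ratios were those of Eprn (68.8 and 1.4 CPM), the lipase gene Pla2g7 (62.1 and 1.4 CPM), Irx1, Cldn10, Cacnb2, the sulfotransferase gene Chst8 (131 and 5.7 CPM), Trim16, the chemokine gene Cxcl12 (59.2 and 2.8 CPM), AI838599 and Gm40999, which had 0 counts in beta nuclei and was at least 29.1-fold higher at a limit of 3 counts over the group. The lowest were those of Kcnj10, Itpr2, Lrmda, Cadps2, Ntn1, Tshr, D630024D03Rik, Tpmt, Epb41l3 and Col5a2.

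No gene was at least 2-fold above both other alpha groups as defined here. The gene whose smaller ratio was largest was Zfhx4, a zinc finger homeobox gene, at 42.5 CPM in the members, 23.2 in cortex alpha and 22.4 in deep medullary alpha nuclei (ratios 1.83 and 1.90). Mef2c, a myocyte enhancer factor, followed at 35.3, 19.9 and 14.7 CPM (ratios 1.78 and 2.41), and Spsb4 at 68.3, 42.5 and 38.5. Mef2c did pass 2-fold against both groups with free RNA subtracted (2.08 and 2.59), and its ratio to the cortex alpha nuclei of clusters 1 and 5 was 2.34, but to those of cluster 5 alone it was 0.983. Between the largest deposited clusters Bmp5 passed 2-fold against both groups, as given above, while Mef2c did so against cortex alone (2.70 and 1.83). Tnik was also among the 10 genes that led this order. Mef2c was higher still in medullary beta nuclei, at 108 CPM, whereas Zfhx4 stood at 8.5 CPM there.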

How the data were processed

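The deposited files hold whole-number transcript counts per gene and barcode, which the authors made with PIPseeker 3.3.0 on GRCm39 from PIPseq libraries (kit version 5.0), as a raw and a filtered matrix with cluster numbers. These counts precede the authors' doublet removal, ambient RNA correction and normalization in Seurat 4.4.0.

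Filtered barcodes were grouped by the count limits given above with scipy 1.17.1, numpy 2.4.6 and pandas 2.3.3 (Python 3.11.15). Counts were summed per group and given as CPM with exact Poisson intervals, ratios with conditional binomial intervals and shares with Clopper-Pearson intervals, each at 95%. A gene was compared where both groups together held at least 100 counts, and counted as past 2-fold at a ratio of at least 2 or at most 0.5. With 1 library per region there is no test. Counts were not corrected for doublets; removal with Scrublet (scanpy 1.11.5) was an alternative. Its automatic threshold called 338 cortical barcodes (6.21%) but 2 medullary ones (0.0246%), so the top-scoring 406 barcodes of that library were taken out.

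Free RNA was read from barcodes outside the filtered list with at most 100 counts. Its share in a group is the level of the 10 proximal tubule genes in the group over that in free RNA. Interval calculations were tested on simulated Poisson counts, which hold no variance between nuclei beyond counting error. Genes were named by rule: the 7 markers, the 10 highest and 10 lowest ratios past 2-fold in each of 3 comparisons, the 10 genes highest against both alpha groups, and the listed genes. All 333 matched GENCODE M39 by identifier. The members, markers and lists were chosen with earlier results of these data known.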

Additional observations from a re-analysis of the deposited data

How the results depend on the processing

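The number of members (790) ranged from 528 to 1025 over the alternatives. Genes past 2-fold against cortex alpha nuclei, 70 here, were 42 with at least 8 Enox1 and Thsd4 counts, 130 after thinning, 363 with a minimum of 30 counts, 21 with 300, 40 in the largest deposited cluster alone and 325 at 1.5-fold. Among alternatives chosen after seeing the data there were 13 at 10 to 14 counts (0 higher of 2816 genes compared), 28 against cortical clusters 1 and 5, and 43 against cortical cluster 5. Against deep medullary alpha nuclei the 392 became 841 with a minimum of 30 counts, 160 with 300 and 1057 at 1.5-fold. Against medullary beta nuclei the 195 became 340 after thinning, 603 with 30 counts, 81 with 300 and 596 at 1.5-fold. Wnt7b, with 33 and 15 counts, fell under the minimum of 100 counts against cortex alpha nuclei. After thinning, the minimum of 100 counts was still applied to the counts before thinning. As in the main setting, 7097 genes were then compared against cortex alpha and 4839 against medullary beta nuclei. The cause of the changed numbers was not tested, apart from fewer or more genes being compared under the count minimums.

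Of all ratios of named genes under the alternatives, 29 that had been past 2-fold changed sides. Of the rest, 8367 stayed inside their interval and 648 moved outside it. Some alternatives left every group as it was, so their ratios could not move. Leaving out barcodes shared by the libraries removed none, since 0 were shared. A floor on detected genes with a ceiling on the mitochondrial share also kept every nucleus. The 8367 is therefore not a measure of stability. Ratios nearer 1 that changed sides are counted among the 8367 and the 648. Against cortical cluster 5 alone these included Tnik (0.822), Ryr2 (0.913), Slco2a1 (0.778), Mef2c (0.983), Sfrp1 (1.197) and Car15 (1.698). Those past 2-fold were the following. Slc8a1 against medullary beta nuclei was 1.004 with at least 8 counts and 1.013 with at most 1 Slc12a3 count. In the largest deposited cluster alone, Tshz2 was 1.015, Tshr 1.816 and Flt1 1.283 against cortex alpha nuclei. Ranbp3l was 0.970 at 10 to 14 counts and 0.986 with free RNA subtracted. Against cortical clusters 1 and 5, Prickle2 was 1.381, Tshz2 1.36, Tshr 2.472, Ndst4 2.898 and Flt1 1.295. Against cortical cluster 5 alone, Ano4 was 0.8834, Filip1l 0.7317, Kcnt1 0.7189, Ppp1r1b 0.658, Gm2115 0.833 and Pcsk6 0.8258, while Prickle2 was 3.187, Tbc1d16 3.386, Csgalnact1 3.984, Pde10a 3.18, Robo2 12.63, Atp2b4 1.722, Sh3bp5 2.035, Mapk4 1.609, Tshr 4.183, Ndst4 3.121 and Flt1 1.594. The minimum of 100 counts was applied to the main comparison only, so some of these ratios rest on few counts. In cortical cluster 5, Robo2 had 5 counts, Tshr 2 and Ndst4 0, which was set to 3 counts for the ratio. No paired analysis was possible because each region has 1 library and no test was made.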

Other observations

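The cortex library held few alpha nuclei of the opposite kind. Under the same limits, 31 of 5442 cortical barcodes (0.570%, exact binomial 95% interval 0.387 to 0.808) had no Enox1 or Thsd4 count. Their 61645 counts had Ranbp3l at 3228 CPM (2795 to 3709), Ano4 at 324 and Pcsk6 at 746, compared with 4719, 424 and 649 in deep medullary alpha nuclei. Sgcz was at 844 CPM (630 to 1106), against 3630 in deep medullary alpha nuclei. Bmp5 and Samd5 had 7 counts each, 114 CPM with an interval of 45.7 to 234. Egf stood at 7787 CPM and Casr at 649, between the levels of deep medullary alpha nuclei and of the members.

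In single nuclei thinned to 1000 counts, the variance of counts over their mean was largest for Robo2 (4.28) among the members. It had a median of 1.08 over 1694 genes, of which 53 reached 1.5. Egf (3.66), Pde10a (2.87), Wnk1 (2.62) and Tenm2 (2.51) followed.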
